A study of Homo sapiens with 6 samples.

Results

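Gene expression was profiled in SUM159 oncospheres that carried an empty vector, and the level of each gene was described in these cells alone. SUM159 is an established human breast cancer cell line, and oncospheres are floating cell clusters that form where cells cannot attach to the dish. Of the 6 arrays of the series, the 3 whose titles name SUM159 with the empty vector were used. The values of the 3 arrays of cells with ectopic SCGB3A1 were not read, although the authors had normalised all 6 arrays together. The control cells had been transduced with pLVX-puro without an insert, kept for 7 days in 2 µg/ml of puromycin, and seeded at 12500 cells/ml on ultra-low attachment plates, where they grew for 5 days in HuMEC medium with albumin and B27 supplement. Every cell measured therefore carries a lentiviral vector and a puromycin resistance gene, and the series holds no untransduced and no adherent culture, so that nothing below can be tied to growth as spheres. Total RNA (100 ng per array) was labelled with biotin and hybridised to Affymetrix 3' expression arrays. The arrays are described as biological replicates, but it is not given whether they came from separate transductions.

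Breast epithelium holds luminal cells, which line the duct and use simple keratins, and basal cells, which rest on the basement membrane and use keratins of stratified epithelia. Carcinoma cells can lose E-cadherin and tight junction proteins and take up vimentin, fibronectin and N-cadherin, a change called the epithelial to mesenchymal transition (EMT) that transcription factors of the SNAI, TWIST and ZEB families drive. Breast tumours with low claudins, low E-cadherin and mesenchymal genes are known as claudin-low, and SUM159 is usually placed among the cell lines of that type. Sphere culture without attachment is commonly used to maintain cells with stem cell properties, for which CD44, CD24 and aldehyde dehydrogenase activity serve as markers in breast cancer.

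Each of 19775 genes was given the log2 level of its brightest probe set, averaged over the 3 arrays. Because probe sets differ in how strongly they bind their target, the order of signals among genes is not an order of transcript amounts, and no fold is given between genes. To mark where signal ends, 178 genes were used that breast cancer cells are not known to express, namely olfactory, taste and vomeronasal receptors, hair keratin-associated proteins, beta-defensins and gamma-crystallins. Their median level was 6.47, and the level that 95% of them stayed at or under was 7.15, which is called the floor here. Genes with a mean at or below the floor were called near the floor (8565 genes, 43.3% of all), genes in the top 10% were called high (1978 genes, 10%, from 10.32 upwards), and the other 9232 were called intermediate. Being near the floor says that a gene could not be told from the reference families on these arrays, not that it is silent. For every list count below, the shares over all genes to set beside it are 43.3% near the floor and 10% high. Over the measured genes of all the lists together, 25.7% were near the floor and 30.3% high. Since the brightest probe set was taken, every probe set of a gene near the floor averaged at or below the floor. A high call is less strict: of 1414 high genes with 2 or more probe sets, 633 (44.8%) had another probe set at or below the floor.

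**Figure D1:**
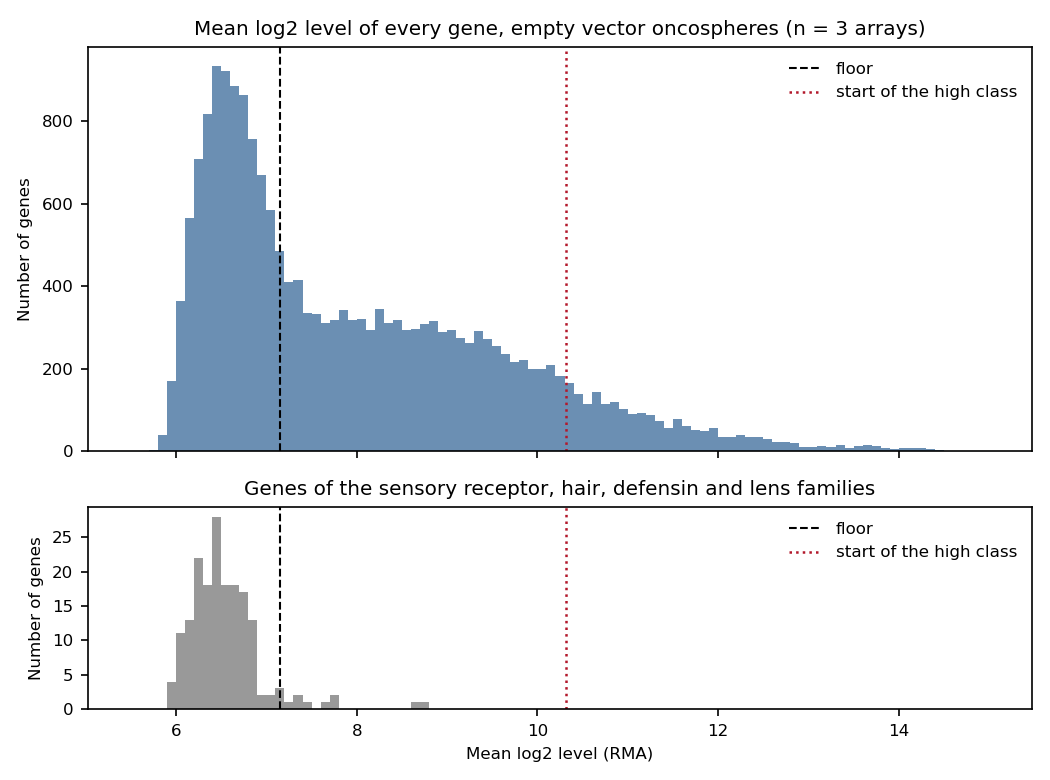
Histograms of the mean log2 level over the 3 empty vector arrays (x axis, RMA) against the number of genes (y axis), for all 19775 genes above and for the 178 genes of the reference families below. The dashed line is the floor at 7.15 and the dotted line is the start of the high class at 10.32. Both histograms peak below the floor, and 9 reference genes lie above it.

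The arrays correlated with each other over all probe sets at Pearson's r of 0.992 (replicates 1 and 2), 0.996 (1 and 3) and 0.992 (2 and 3). Among the 11210 genes above the floor, the median SD over the arrays was 0.089 on the log2 scale, and 96.4% of genes had an SD under 0.25. Replicate 2 stood apart from the others: 183 of these genes differed in it by more than 0.5 from the mean of the other arrays, against 34 for replicate 1 and 6 for replicate 3. Leaving it out changed the class of 14 of the 1090 measured genes of the lists used below with respect to the floor. The 57 gene lists named 1189 genes, and the other 99 are not analysed here, 23 of them because their probe sets are annotated to several genes at once.

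The 20 highest genes had means from 14.14 to 14.66. EEF1A1, the translation elongation factor, read 14.66 on every array, the top value of the shared distribution. Of these 20 genes, 8 encode ribosomal proteins, and others encode housekeeping or iron-binding proteins such as GAPDH (14.24 ± 0.067), B2M (14.30 ± 0.022), FTL (14.35 ± 0.0095) and TPT1 (14.34 ± 0.011). Beside them stood genes of mesenchymal cells and their matrix. VIM, the mesenchymal intermediate filament, read 14.43, 14.44 and 14.40 on replicates 1, 2 and 3 (mean 14.42 ± 0.022 SD, n = 3, as for every mean below). TGFBI, a secreted adhesion protein induced by TGF-beta, read 14.38, 14.38 and 14.37. COL3A1, the chain of type III collagen, read 14.14, 14.18 and 14.21, and FN1, fibronectin, read 14.16, 14.11 and 14.15. No epithelial structural gene of the lists was among the 20.

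Of 26 measured genes of epithelial adhesion and junctions, 15 were near the floor (57.7%, against 43.3% of all genes), 10 were intermediate and 1 was high. With the floor at the 90th percentile of the reference families (6.87), 10 of the 26 were near it, against 34.3% of all genes. CDH1, which encodes E-cadherin, the adhesion receptor of adherens junctions, read 6.22, 6.34 and 6.25, below the floor on every array, and both of its probe sets lay there. EPCAM, an epithelial adhesion molecule, read 6.12, 6.10 and 6.36. The claudins that seal tight junctions were likewise low, with CLDN3 at 7.18, 6.90 and 7.07, CLDN4 at 6.77, 6.97 and 6.96 and CLDN7 at 6.65, 6.84 and 6.71. Of these genes only CLDN3 came above the floor on any array, on replicate 1, and CLDN3 and CLDN4 lay above the lower floor of 6.87. The tight junction scaffold CGN (6.74 ± 0.040), the tricellular junction protein MARVELD2 (6.75 ± 0.16) and the epithelial GTPase RAB25 (6.47 ± 0.15) were near the floor as well, and occludin, encoded by OCLN, averaged 7.23 ± 0.078, just above it.

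Proteins of desmosomes and a surface glycoprotein were among the members above the floor. JUP, plakoglobin, read 10.08, 10.15 and 9.97 and DSP, desmoplakin, read 9.91, 9.93 and 9.92, and both were intermediate on every array. CD24, a glycosylated surface protein that is low in claudin-low tumours, read 11.90, 11.92 and 12.05 and was the sole high member of the adhesion list. All 6 of its probe sets averaged above the floor, from 10.19 to 11.96, but each carries the suffix _x_at or _s_at. These suffixes mark possible cross-hybridisation or probes shared by several transcripts, which can be of the same gene. Both kinds are called probe sets of possible cross-hybridisation here, and CD24 has no value without such probe sets. Of the 6 genes whose low level marks claudin-low tumours (CLDN3, CLDN4, CLDN7, CDH1, EPCAM and CD24), 5 were near the floor and CD24 was high. CDH1, EPCAM and CLDN3 likewise have no value without such probe sets.

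Among 12 measured transcription and splicing factors of epithelia, 9 were near the floor (75%, against 43.3% of all genes). They included the splicing regulator ESRP1 (6.63 ± 0.053), the grainyhead factors GRHL1 (6.65 ± 0.013), GRHL2 (6.43 ± 0.033) and GRHL3 (6.51 ± 0.11), which maintain epithelial junction genes, and OVOL1 (6.87 ± 0.12) and OVOL2 (6.65 ± 0.14), which repress EMT. The ETS factors of secretory epithelium ELF3 (7.02 ± 0.13), ELF5 (6.40 ± 0.042) and EHF (6.65 ± 0.074) completed this set. The 3 others were TFAP2A, an AP-2 factor of skin and breast, at 11.29, 11.44 and 11.29, its paralogue TFAP2C at 9.91, 9.76 and 9.78, and KLF5, a basal epithelial factor, at 9.10, 8.96 and 9.13. TFAP2A was high on all arrays, and TFAP2C and KLF5 were intermediate on all of them.

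SNAI and ZEB factors bind the letters CAGGTG or CACCTG, known as the E-box of EMT repressors, each of which is the other's reverse complement, so that a search for both covers both strands. The 250 bases before an annotated start were searched in RefSeq promoter windows of the build GRCh38.p14. In all, 15383 of the array's genes had at least 1 window, and 17.5% of all 35114 windows held the motif. Of the 26 measured epithelial adhesion genes, 17 had a window, and CDH1 and EPCAM were among those without and were not searched. Of the 24 windows of these 17 genes, 13 held the motif (54.2%). It was in 4 of 10 windows of the members near the floor and in 9 of 14 windows of the members above the floor. Epithelial transcription and splicing factors held it in 2 of 11 windows (18.2%) and oxidative phosphorylation genes in 6 of 19 (31.6%). For the 17 mesenchymal genes with a window, 4 of 30 windows held it (13.3%). A match is a description of the letters and not a measured site, and these lists are small. The windows below belong to 2 claudin genes near the floor and, for contrast, to a high basal keratin and 2 of the highest genes. They are written 5′ to 3′ on the gene's strand, with E-box letters in capitals.
CLDN7, chr17:7262479-7262728, minus strand: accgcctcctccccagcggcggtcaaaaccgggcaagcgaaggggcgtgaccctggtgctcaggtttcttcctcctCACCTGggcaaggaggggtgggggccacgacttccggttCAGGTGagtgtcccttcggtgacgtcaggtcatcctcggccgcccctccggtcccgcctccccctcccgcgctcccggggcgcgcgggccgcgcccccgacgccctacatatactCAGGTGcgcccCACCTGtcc
CLDN4, chr7:73830746-73830995, plus strand: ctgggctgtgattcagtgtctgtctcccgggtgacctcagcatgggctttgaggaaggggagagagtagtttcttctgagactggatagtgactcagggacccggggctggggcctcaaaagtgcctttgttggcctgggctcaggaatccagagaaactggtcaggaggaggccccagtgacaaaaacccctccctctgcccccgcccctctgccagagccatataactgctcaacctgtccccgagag
KRT5, chr12:52520395-52520644, minus strand: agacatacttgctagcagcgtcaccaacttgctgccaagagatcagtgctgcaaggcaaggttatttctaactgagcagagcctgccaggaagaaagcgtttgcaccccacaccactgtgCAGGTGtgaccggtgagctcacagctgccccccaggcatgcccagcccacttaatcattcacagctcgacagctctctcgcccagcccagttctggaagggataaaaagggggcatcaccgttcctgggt
VIM, chr10:17227991-17228240, plus strand: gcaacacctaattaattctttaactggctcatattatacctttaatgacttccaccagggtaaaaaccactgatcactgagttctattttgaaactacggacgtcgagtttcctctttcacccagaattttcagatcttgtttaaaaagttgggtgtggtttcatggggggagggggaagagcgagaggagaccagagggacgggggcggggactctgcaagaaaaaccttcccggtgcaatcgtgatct
TGFBI, chr5:136028738-136028987, plus strand: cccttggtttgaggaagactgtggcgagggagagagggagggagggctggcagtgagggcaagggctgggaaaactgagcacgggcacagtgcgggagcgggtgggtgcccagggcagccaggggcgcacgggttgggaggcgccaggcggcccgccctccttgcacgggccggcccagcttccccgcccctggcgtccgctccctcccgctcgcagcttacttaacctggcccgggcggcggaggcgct
The CLDN7 window held 4 copies of the motif, which began at -174, -135, -20 and -9 counted from the start, and 25 CG pairs. The window of a second CLDN7 start, chr17:7263214-7263463, minus strand, held none. No copy was found in these windows of CLDN4, VIM and TGFBI, and KRT5 held 1 at -130.

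Keratins, the intermediate filaments of epithelia, were found in every class. Of the 5 simple epithelial keratins measured, 3 were high: KRT18 read 11.57, 11.31 and 11.44, KRT8 read 10.93, 10.63 and 10.91 and KRT7 read 10.62, 10.37 and 10.68. KRT19, a luminal keratin, read 6.50, 6.52 and 6.59 and KRT20, a keratin of the gut, 6.20, 6.31 and 6.12, both near the floor on every array. KRT8 and KRT18 each rest on 1 probe set marked for possible cross-hybridisation, and without such probe sets none of the 3 simple keratins left was high. Replicate 2 gave the lowest value for each of the 3 high simple keratins. Among 10 measured basal and stratified keratins, 2 were high, 3 intermediate and 5 near the floor. KRT5, the basal keratin, read 11.85, 11.72 and 12.11 from its 1 probe set, whereas its filament partner KRT14 read 9.52, 9.18 and 9.60, intermediate on every array. KRT15 averaged 9.76 ± 0.13 and KRT16, a keratin of activated epidermis, 9.46 ± 0.066, and KRT10, of differentiated epidermis, 10.83 ± 0.033. KRT13 (6.19 ± 0.11), KRT1 (6.43 ± 0.18) and KRT23 (6.43 ± 0.10) were the lowest.

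Proteins of hemidesmosomes and desmosomes, which anchor keratins at the membrane, were found in every class. CD151, the tetraspanin that binds laminin-receptor integrins, averaged 11.15 ± 0.19, and DSG2, the desmoglein of simple epithelia, 11.06 ± 0.10. DST, which links keratins to hemidesmosomes, averaged 10.87 ± 0.038. ITGA6, the integrin alpha 6 chain of the laminin receptor, read 10.67, 10.96 and 10.88, and its hemidesmosome partner ITGB4 read 7.90, 7.92 and 7.94, intermediate. The desmosomal cadherins of stratified epithelium DSG1 (6.11 ± 0.024), DSC3 (6.19 ± 0.048) and DSG3 (6.82 ± 0.14), with DSC2 (6.47 ± 0.078) and the plakophilin PKP2 (6.64 ± 0.12), were near the floor. In all, 4 of 13 measured members were high (30.8%, against 10% of all genes) and 5 near the floor (38.5%, against 43.3%).

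Luminal and hormone response genes were near the floor in 10 of 18 cases (55.6%, against 43.3% of all genes), and 1 was high. With the floor at the 90th percentile 6 of 18 were near it, against 34.3% of all genes. Without probe sets of possible cross-hybridisation 6 of 15 were near it, against 45.3% of all genes. Neither of these shares exceeded that of all genes. ESR1, the estrogen receptor alpha gene, read 7.03, 7.35 and 7.09, at a mean of 7.16 against the floor of 7.15, and 8 of its 9 probe sets averaged below the floor. PGR, the progesterone receptor, read 6.35, 6.46 and 6.24, and FOXA1, the pioneer factor of estrogen response, read 6.53, 6.37 and 6.66. The estrogen-induced secreted proteins TFF1 (6.44 ± 0.20), AGR2 (6.38 ± 0.11) and SCUBE2 (6.37 ± 0.11) were near the floor. GATA3, the luminal lineage factor, averaged 8.17 ± 0.078, but without probe sets of possible cross-hybridisation it was 6.83, near the floor. The high member was CA12, a membrane carbonic anhydrase, which read 11.72, 11.49 and 11.73, followed by the T-box factor TBX3 (10.16 ± 0.088) and the secretory factor XBP1 (9.86, 10.20 and 9.94). Of 14 genes of milk and other secretory proteins, 11 were near the floor and none was high, with the secretoglobins SCGB2A2 (6.06 ± 0.088) and SCGB2A1 (6.19 ± 0.070) lowest.

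Genes of myoepithelial contraction were partly present. CALD1, caldesmon, averaged 12.43 ± 0.058, and the tropomyosins TPM1 and TPM2 averaged 11.86 ± 0.11 and 11.39 ± 0.040. SFN, the 14-3-3 sigma protein of basal cells, read 12.37, 12.34 and 12.34. CDH3, P-cadherin of basal breast cells, averaged 10.06 ± 0.065, and ACTA2, smooth muscle actin, 9.39 ± 0.059. The mature smooth muscle genes CNN1 (6.47 ± 0.027), LMOD1 (6.81 ± 0.33), ACTG2 (6.87 ± 0.20) and MYH11 (7.04 ± 0.15) were near the floor. Of 14 genes, 4 were high, 6 intermediate and 4 near the floor.

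**Figure D2:**
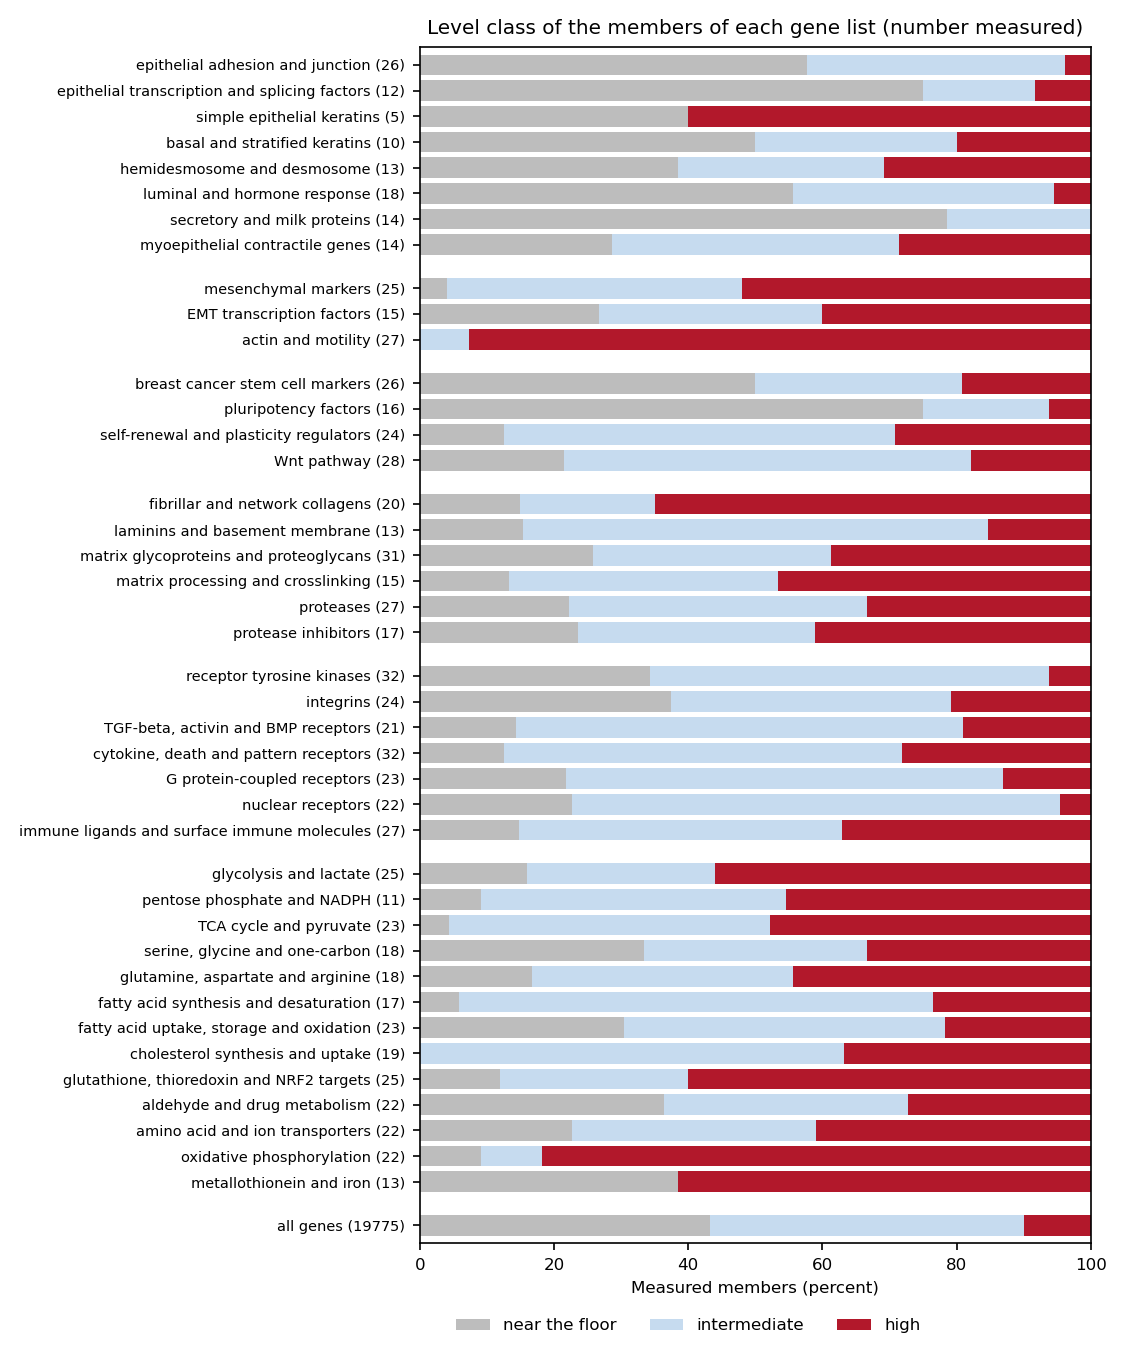
Share of measured members (x axis, percent) that were near the floor (grey), intermediate (light blue) or high (red) for each gene list, grouped by theme, with the number measured in brackets and all 19775 genes in the last row. Actin and motility genes were high in 25 of 27 cases, while 9 of 12 epithelial transcription and splicing factors were near the floor.

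Mesenchymal genes were above the floor with 1 exception. Of 25 measured markers, 13 were high (52.0%, against 10% of all genes), 11 were intermediate, and only CDH11, a mesenchymal cadherin, was near the floor (6.68, 6.99 and 6.79). After VIM, TGFBI and FN1, the highest were S100A4, a calcium-binding protein of motile cells, at 13.65, 13.52 and 13.54, SPARC, a collagen-binding glycoprotein, at 13.40, 13.79 and 13.42, and POSTN, periostin, at 13.05, 13.12 and 13.17. SPARC was highest on replicate 2. CDH2, N-cadherin, which replaces E-cadherin in EMT, read 10.19, 10.06 and 10.19, intermediate on every array. The caveolar genes CAV1 (12.43 ± 0.16) and CAVIN1 (11.14 ± 0.15) and the ERM protein MSN (11.72 ± 0.058) were high. FAP, the fibroblast surface protease, averaged 9.24 ± 0.12, and THY1, a fibroblast surface glycoprotein, 7.53 ± 0.034. For VIM the second probe set averaged 7.33, close to the floor, so the call rests on 1 of 2 probe sets. VIM has no value without probe sets of possible cross-hybridisation, and FN1 averaged 8.24 without them.

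The transcription factors of EMT were not uniformly present. SNAI2, also called SLUG, read 11.37, 11.56 and 11.45 and was high on every array, whereas SNAI1 read 6.82, 6.66 and 6.99 and was near the floor on every array. TWIST2 read 10.84, 10.76 and 10.92, and TWIST1 read 8.98, 9.63 and 9.23, intermediate, with replicate 2 highest. ZEB1 read 10.28, 10.51 and 10.32, so that replicate 1 lay under the start of the high class and the others at or above it, and ZEB2 read 7.82, 8.19 and 8.15. SOX4, an HMG factor downstream of TGF-beta, averaged 11.90 ± 0.069, and the E-proteins TCF4 and TCF3, which pair with TWIST factors, averaged 10.88 ± 0.032 and 10.36 ± 0.14. FOXQ1 (10.25 ± 0.14) and PRRX1 (10.03 ± 0.088) were just under the high class. KLF8 (6.70 ± 0.12), GSC (6.47 ± 0.045) and SNAI3 (6.44 ± 0.070) were near the floor. In all, 6 of 15 measured factors were high, 5 intermediate and 4 near the floor.

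The genes of the actin skeleton formed the most uniformly high list of this theme, with 25 of 27 measured members high and none near the floor. Thymosin beta 10 (TMSB10, 14.17 ± 0.024), galectin 1 (LGALS1, 14.10 ± 0.029), ACTB (14.02 ± 0.013) and annexin A2 (ANXA2, 14.00 ± 0.041) led it. The 2 that were not high were the actinin ACTN4 (10.02 ± 0.036) and MYL9, the light chain of smooth muscle and nonmuscle myosin (7.49 ± 0.067). Many of these genes are abundant in most cultured cells, and no other cell type was measured here for reference. Without probe sets of possible cross-hybridisation, 16 of 23 genes of this list were high and 4 near the floor. By the median over probe sets, 20 of 27 were high and 1 near the floor.

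**Figure D3:**
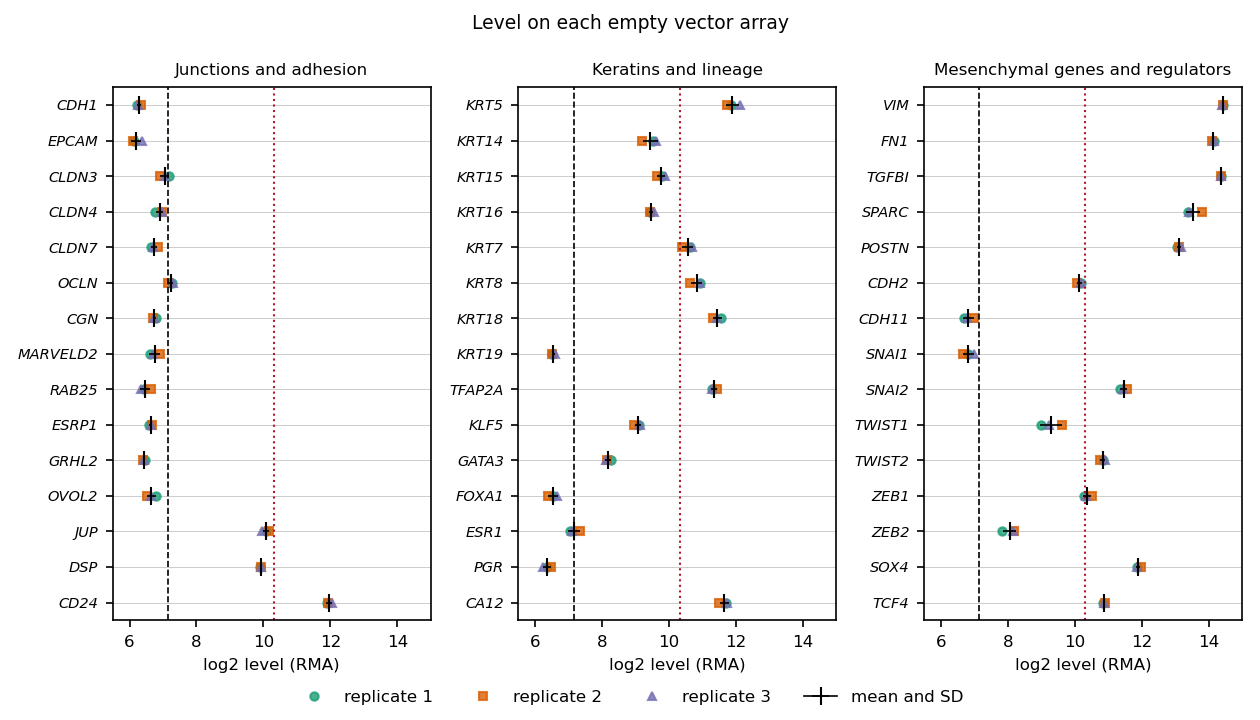
Log2 level (x axis, RMA) of named junction genes, keratins with lineage genes, and mesenchymal genes with their regulators on each of the 3 empty vector arrays (coloured symbols), with the mean and SD in black. The dashed line is the floor (7.15) and the dotted line the start of the high class (10.32). CDH1 and EPCAM lie at 6.36 or below on every array and VIM, FN1 and TGFBI at 14.11 or above.

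Of 26 measured markers of breast cancer stem cells, 13 were near the floor (50%, against 43.3% of all genes), 8 were intermediate and 5 high. CD44, the hyaluronan receptor, read 12.49, 12.78 and 12.61, and ITGB1, the integrin beta 1 chain, read 13.31 on every array. ANPEP, aminopeptidase N, averaged 11.53 ± 0.10, and ITGA6 and CD24 were high as given above. Array data on pooled cells do not show whether the same cells carry CD44 and CD24, and the CD24 value rests on probe sets marked for possible cross-hybridisation. For CD44, 9 of 13 probe sets averaged above the floor, with a range from 6.06 to 12.63.

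The aldehyde dehydrogenases by which stem cell activity is assayed in breast were low. ALDH1A1 read 6.35, 6.11 and 6.32, ALDH1A3 read 6.81, 6.75 and 7.01 and ALDH1A2 read 6.70, 6.31 and 6.65, all near the floor on every array. PROM1, also called CD133, read 6.14, 6.07 and 6.12, and the receptor LGR5 of intestinal stem cells averaged 6.54 ± 0.056. The drug efflux pump ABCG2 averaged 8.04 ± 0.078, intermediate, and its relative ABCB1 6.30 ± 0.11, near the floor. PROCR, the protein C receptor of mammary stem cells, averaged 9.73 ± 0.14, and the R-spondin receptor LGR4 read 9.09, 9.73 and 9.25, highest on replicate 2. KIT (6.82 ± 0.11) and CXCR4 (6.68 ± 0.063) were near the floor.

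Pluripotency factors were near the floor in 12 of 16 measured cases (75%, against 43.3% of all genes). SOX2 read 6.70, 6.76 and 6.55, LIN28A read 6.16, 5.91 and 6.09 and NANOG read 6.71, 7.23 and 6.65, of which only NANOG on replicate 2 exceeded the floor. MYC was the sole high member, at 11.09, 11.03 and 11.14, and KLF4 (8.76 ± 0.082) and KLF2 (8.54 ± 0.018) were intermediate. TERT, the telomerase subunit, averaged 6.91 ± 0.11. Of 24 regulators of self-renewal and plasticity, 7 were high, 14 intermediate and 3 near the floor. YAP1 (11.51 ± 0.18), WWTR1 (11.27 ± 0.023) and TEAD1 (10.71 ± 0.031), the effectors of the Hippo pathway, were high, as were the Notch ligand JAG1 (11.26 ± 0.052), the receptor NOTCH2 (11.24 ± 0.060) and the Notch target HES1 (10.51 ± 0.12). NOTCH1 (8.76 ± 0.038) and NOTCH3 (8.60 ± 0.033) were intermediate and NOTCH4 (6.97 ± 0.17) near the floor. The ID proteins, which inhibit differentiation factors, averaged 9.04 ± 0.13 for ID1, 9.71 ± 0.14 for ID2, 9.16 ± 0.069 for ID3 and 6.82 ± 0.18 for ID4, of which only ID4 was near the floor.

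In the Wnt pathway 5 of 28 measured genes were high and 6 near the floor. CTNNB1, which encodes beta-catenin, averaged 12.26 ± 0.030, and the secreted protein DKK3 12.73 ± 0.038. WNT5A, a ligand of noncanonical signalling, averaged 11.05 ± 0.12, whereas the canonical ligands WNT7B (7.78 ± 0.18) and WNT10B (7.72 ± 0.19) were lower on their own probe sets and intermediate. Among receptors, FZD6 (11.07 ± 0.056) and the kinase-like RYK (10.44 ± 0.081) were high, FZD7 averaged 9.62 ± 0.12 and LRP6 9.41 ± 0.038. ROR2 (6.33 ± 0.15), SFRP1, a secreted inhibitor (6.67 ± 0.083), and WNT5B (6.72 ± 0.088) were the lowest.

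Matrix genes were well represented, with 13 of 20 collagens high and 3 near the floor. Type VI collagen, which forms microfibrils, was high for all of its measured chains: COL6A1 averaged 13.51 ± 0.17, COL6A2 11.92 ± 0.085 and COL6A3 13.71 ± 0.029. The basement membrane chains COL4A1 (11.93 ± 0.034), COL4A2 (11.69 ± 0.090), COL4A5 (11.63 ± 0.11) and COL4A6 (11.76 ± 0.083) were also high, and COL4A3 (6.55 ± 0.075) was near the floor. The fibril-forming chains COL5A1 and COL5A2 averaged 11.57 ± 0.19 and 12.74 ± 0.10.

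The chains of type I collagen were at opposite ends. COL1A1 read 13.52, 13.74 and 13.67, while COL1A2, with which COL1A1 normally forms the type I heterotrimer, read 7.01, 6.99 and 6.84, below the floor on every array. All 3 probe sets of COL1A2 averaged from 6.44 to 6.95. Of the 5 probe sets of COL1A1, 4 averaged above the floor.

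Of 31 measured matrix glycoproteins and proteoglycans, 12 were high and 8 near the floor. MGP, matrix Gla protein, an inhibitor of calcification, read 14.08, 14.25 and 14.08, and THBS1, thrombospondin 1, read 12.08, 12.42 and 12.16. TNC, tenascin C, a hexameric matrix glycoprotein of wounds and metastatic niches, read 11.99, 11.91 and 12.02, though its other 2 probe sets averaged 7.07 and 6.95. VCAN, versican, averaged 11.65 ± 0.098, and FBN1, fibrillin 1, 10.88 ± 0.027. BGN, biglycan, read 9.80, 10.34 and 9.69, with replicate 2 highest. At the low end were FBN2 (6.29 ± 0.077), HAS2, a hyaluronan synthase (6.64 ± 0.092), GPC3 (6.66 ± 0.065) and SPP1, osteopontin (6.72 ± 0.087).

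Laminin chains gave a partial set. LAMC1 averaged 12.06 ± 0.056 and LAMB1 11.43 ± 0.26, the gamma 1 and beta 1 chains that most laminins share. The alpha chains were lower in class: LAMA4 (9.69 ± 0.062) and LAMA5 (8.82 ± 0.071) were intermediate, and LAMA1 and LAMA2 (7.04 ± 0.23) were near the floor. Enzymes that modify collagen were high in 7 of 15 cases. PCOLCE, the enhancer of procollagen cleavage, averaged 12.58 ± 0.13, the collagen chaperone SERPINH1 12.28 ± 0.029, and the prolyl hydroxylases P4HA1, P4HA2 and P4HB averaged 10.52 ± 0.054, 12.20 ± 0.039 and 12.51 ± 0.013. Among the crosslinking oxidases, LOXL1 (10.60 ± 0.11) was high, LOXL2 (10.03 ± 0.11) and LOX (9.22 ± 0.16) intermediate, and LOXL3 (6.99 ± 0.030) and LOXL4 (6.99 ± 0.18) near the floor.

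Matrix proteases were high in 9 of 27 cases. MMP2, gelatinase A, read 11.74, 11.67 and 11.61, and its membrane activator MMP14 read 10.53, 10.22 and 10.43. TIMP2, which takes part in that activation and inhibits the enzyme, read 12.80, 12.84 and 12.81. MMP9 (7.13 ± 0.13) was near the floor, as were the stromelysins MMP3 (6.46 ± 0.21) and MMP10 (6.85 ± 0.14), the collagenase MMP13 (6.50 ± 0.13) and the epithelial MMP7 (6.42 ± 0.092). The cathepsins CTSB (12.26 ± 0.018), CTSZ (11.69 ± 0.097) and CTSL (10.93 ± 0.050) and the plasminogen activators PLAU (11.29 ± 0.15) and PLAT (10.50 ± 0.030) were high. Among 17 measured inhibitors 7 were high, with TIMP1 (13.31 ± 0.082), the cystatins CSTB (12.89 ± 0.17) and CST3 (12.09 ± 0.21) and SERPINE2 (12.62 ± 0.096) beside TIMP2, and 4 were near the floor, including TIMP4 (6.48 ± 0.12) and A2M (6.61 ± 0.085).

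Receptor tyrosine kinases were mostly intermediate. Of 32 measured, 19 were intermediate, 11 near the floor (34.4%, against 43.3% of all genes) and 2 high (6.25%, against 10%). AXL, the receptor for GAS6 that is common in mesenchymal carcinoma lines, read 11.03, 10.85 and 10.96, and PDGFRA, the PDGF receptor alpha, read 10.51, 10.67 and 10.49. PDGFRB averaged 9.58 ± 0.10, so that both PDGF receptors were above the floor. The ligand PDGFC read 12.09, 12.24 and 12.09 and was high, PDGFA (9.82 ± 0.020) was intermediate and PDGFB (6.94 ± 0.37) near the floor. For PDGFRA, 2 of 4 probe sets averaged below the floor.

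In the EGF receptor family, EGFR read 9.68, 9.87 and 9.60 and ERBB2 read 8.64, 8.49 and 8.75, both intermediate on every array. ERBB3 read 6.85, 7.47 and 6.96, above the floor on replicate 2 alone, and ERBB4 read 6.53, 6.77 and 6.57. Only 1 of the 3 probe sets of ERBB2 averaged above the floor, and ERBB2 has no value without probe sets of possible cross-hybridisation. Among the 6 ligands measured, EREG, epiregulin, was intermediate at 9.94, 9.84 and 9.76 and HBEGF (7.20 ± 0.16) just above the floor, while TGFA (6.98 ± 0.18), BTC (6.73 ± 0.14), NRG1 (7.15 ± 0.034) and EGF (6.37 ± 0.11) were near it. MET, the hepatocyte growth factor receptor, averaged 9.48 ± 0.082 with HGF at 7.73 ± 0.11, and IGF1R averaged 9.08 ± 0.044. FGFR1 read 9.70, 9.01 and 9.50, lowest on replicate 2, and the other FGF receptors read 8.02 or less on each array. All 3 VEGF receptors measured (FLT1, KDR and FLT4) were near the floor, whereas the ligands VEGFA (11.47 ± 0.028) and VEGFC (10.42 ± 0.092) were high.

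Integrins, the receptors for matrix proteins, were high for beta 1 and alpha v chains. Of 24 measured chains, 5 were high: ITGB1, ITGAV (12.03 ± 0.24), ITGA6, ITGA2 (10.76 ± 0.066) and ITGB5 (10.66 ± 0.063). The fibronectin receptor chain ITGA5 (8.43 ± 0.10) and the laminin receptor chain ITGA3 (8.43 ± 0.033) were intermediate. All 7 chains typical of leukocytes and platelets (ITGAL, ITGAM, ITGAX, ITGB2, ITGB7, ITGA2B and ITGA4) were near the floor, with means from 6.25 to 7.02.

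The study asked how factors from lung vessels act on breast cancer cells. The genes of its 4 vascular factors were near the floor in the cancer cells' own RNA. INHBB, the subunit of activin B, read 6.67, 6.53 and 6.62, and LAMA1, the laminin alpha 1 chain, read 7.13, 6.82 and 7.08. SCGB3A1, the secretoglobin tested in the other arm of the series, read 6.80, 6.89 and 7.05, and TNFRSF11B, also called OPG, a decoy receptor for TRAIL and RANKL, read 7.06, 7.09 and 7.13. All 4 were at or below the floor on every array. TNC was listed with them and was high, but the paper describes it as a product of the cancer cells. TNFRSF11B, at a mean of 7.10, and LAMA1, at 7.01, lay close to the floor. With the floor at the 90th percentile (6.87) INHBB alone of the 4 stayed near it, and LAMA1 was also above the floor without probe sets of possible cross-hybridisation. The other inhibin subunits, INHA (6.63 ± 0.20) and INHBA (6.66 ± 0.090), were near the floor too.

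**Figure D4:**
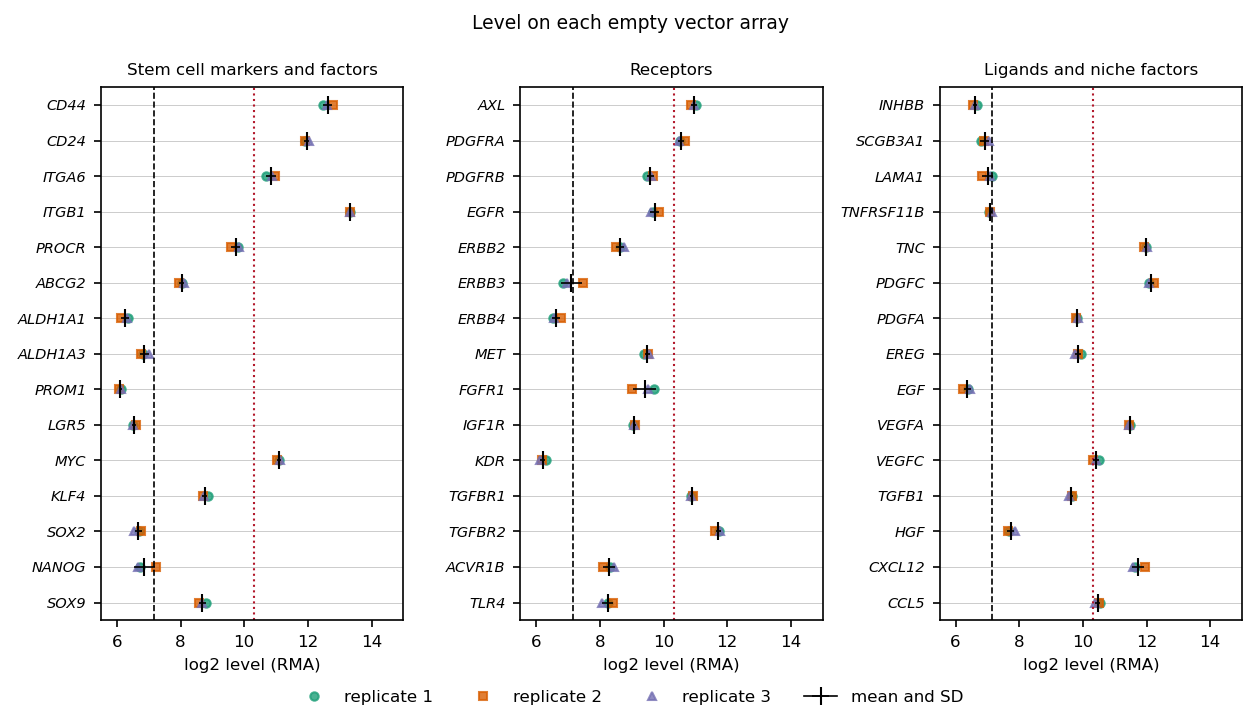
Log2 level (x axis, RMA) of stem cell genes, receptors, and ligands with the study's niche factors on each of the 3 empty vector arrays (coloured symbols), with the mean and SD in black. The dashed line is the floor (7.15) and the dotted line the start of the high class (10.32). CD44 and CD24 lie right of the dotted line on every array, and INHBB, SCGB3A1, LAMA1 and TNFRSF11B lie left of the dashed line.

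Receptors for activin B, and those for TRAIL, a ligand that OPG binds, were above the floor. For activin B, the type I receptor ACVR1B read 8.32, 8.09 and 8.45, and the type II receptors ACVR2A and ACVR2B read 8.07, 8.16 and 8.21 and 7.64, 7.91 and 7.68. All 4 activin receptors measured were intermediate, with ACVR1C at 7.45 ± 0.14. With the floor at the 99th percentile of the reference families (7.98), ACVR1C and ACVR2B were near the floor. The TGF-beta receptors were high, with TGFBR2 at 11.75, 11.63 and 11.78 and TGFBR1 at 10.85, 10.93 and 10.87, as was the BMP and activin type I receptor ACVR1 (10.97 ± 0.10). The signal transducers SMAD1 (10.87 ± 0.12), SMAD2 (10.07 ± 0.075), SMAD3 (8.69 ± 0.096), SMAD4 (9.88 ± 0.042) and SMAD5 (9.97 ± 0.28) were all above the floor, and SMAD9 (6.84 ± 0.084) was not. OPG binds TRAIL and RANKL as a decoy. The TRAIL receptors TNFRSF10B (10.75 ± 0.10) and TNFRSF10A (8.62 ± 0.083) were high and intermediate. The TRAIL gene TNFSF10 (6.93 ± 0.12) and the RANKL gene TNFSF11 (6.38 ± 0.042) were near the floor. TLR4, a pattern receptor that TNC can activate, averaged 8.24 ± 0.17 in these cancer cells.

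Of 32 cytokine, death and pattern receptors, 9 were high (28.1%, against 30.3% of all list genes) and 4 near the floor (12.5%, against 25.7%). The shared signal chain IL6ST, or gp130, averaged 12.38 ± 0.20, IFNGR1 11.92 ± 0.17 and IL1R1 11.18 ± 0.17. CCR7 (6.28 ± 0.019), CXCR4 and TNFRSF1B (6.96 ± 0.14) were near the floor. Among 23 G protein-coupled receptors, F2R, the thrombin receptor, read 11.64, 12.52 and 11.70, with replicate 2 highest, and PTGER4, a prostaglandin E2 receptor, read 11.68, 11.70 and 11.76. PTGER2 (6.30 ± 0.074) was the lowest. Of 22 nuclear receptors, NR3C1, the glucocorticoid receptor, was high (11.70, 11.63 and 11.82), 16 were intermediate, and ESR2 (6.74 ± 0.095), PGR and ESRRG (6.31 ± 0.056) were among the 5 near the floor. Without replicate 1, without replicate 3 or by the median over probe sets 2 nuclear receptors were high.

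Surface molecules seen by immune cells were high in 10 of 27 cases. These were B2M with the class I heavy chains HLA-B (13.67 ± 0.071), HLA-C (13.50 ± 0.048), HLA-E (11.73 ± 0.072), HLA-F (11.99 ± 0.055) and HLA-G (12.31 ± 0.048), the complement regulators CD59 (12.54 ± 0.033) and CD46 (11.30 ± 0.091), and CD47 (11.44 ± 0.18) and CD58 (10.75 ± 0.11). Class I genes are near-identical in parts, so signal may be shared among their probe sets. CD274, which encodes PD-L1, averaged 7.16 ± 0.13, just above the floor, and the costimulatory CD80 (6.87 ± 0.12) and CD86 (6.77 ± 0.10) were near it. Of 30 cytokines and chemokines, 4 were high and 12 near the floor. MIF (13.32 ± 0.10) and HMGB1 (13.20 ± 0.031) led, followed by the chemokines CXCL12, at 11.65, 11.94 and 11.58, and CCL5, at 10.53, 10.49 and 10.38. CXCL8 (9.04 ± 0.15) and IL6 (8.13 ± 0.044) were intermediate, and CCL2 (6.48 ± 0.075), CXCL5 (6.19 ± 0.055) and TNF (6.76 ± 0.046) near the floor.

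Metabolic genes were high in 113 of 254 measured cases and near the floor in 45. In glycolysis, 14 of 25 genes were high, and the tissue-restricted isoforms formed the low end. Among the lactate dehydrogenases, LDHA (13.60 ± 0.037) and LDHB (13.48 ± 0.014) were high and the testis form LDHC (6.94 ± 0.030) was near the floor. Among enolases, ENO1 averaged 13.15 ± 0.046, the neuronal ENO2 7.57 ± 0.058 and the muscle ENO3 6.91 ± 0.14. PKM, the pyruvate kinase of proliferating cells, averaged 11.57 ± 0.12, and the liver and red cell form PKLR 6.67 ± 0.031. HK1 averaged 11.69 ± 0.27, while HK2 read 8.29, 9.27 and 9.21, with replicate 1 lowest. The glucose transporters SLC2A3 (9.96 ± 0.13) and SLC2A1 (9.54 ± 0.19) were intermediate, and SLC2A4 (6.48 ± 0.071) and SLC2A2 (6.15 ± 0.11), of muscle with fat and of liver, were near the floor.

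Genes of mitochondrial respiration were high in 18 of 22 cases, and the 2 near the floor, COX7A1 (6.51 ± 0.077) and COX6A2 (6.45 ± 0.16), encode muscle forms. In the TCA cycle 11 of 23 were high, led by MDH2 (11.97 ± 0.019) and MDH1 (11.87 ± 0.11), and PDK4, the pyruvate dehydrogenase kinase of fasting, was the sole gene near the floor (6.53 ± 0.17). The pentose phosphate enzymes TKT (13.31 ± 0.11), TALDO1 (12.00 ± 0.064) and PGD (11.51 ± 0.051) were high. GLUL, glutamine synthetase, averaged 12.51 ± 0.15 and ASS1, the urea cycle enzyme that makes argininosuccinate, 12.42 ± 0.016. In one-carbon metabolism, the mitochondrial SHMT2 (10.63 ± 0.18) and MTHFD2 (11.41 ± 0.047) were high, while the cytosolic SHMT1 (6.44 ± 0.020) and the mitochondrial MTHFD1L (6.72 ± 0.13) were near the floor.

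Antioxidant genes were prominent. Of 25 genes of glutathione, thioredoxin and the NRF2 response, 15 were high and 3 near the floor. NQO1, a quinone reductase, read 13.17, 13.17 and 13.12, CAT, catalase, read 12.87, 12.61 and 12.93, and PRDX1, a peroxiredoxin, 12.95, 12.88 and 12.90. SLC7A11, the cystine transporter, averaged 11.76 ± 0.055, TXNRD1 11.73 ± 0.079 and NFE2L2, the gene of NRF2 itself, 11.94 ± 0.092. The aldo-keto reductases AKR1C1 (13.13, 12.95 and 13.06), AKR1C2 (12.80, 12.85 and 12.70) and AKR1C3 (12.44, 12.44 and 12.47) were high as well, though these paralogues are near-identical and may share signal, and AKR1C4 averaged 6.18 ± 0.054. Of the NQO1 probe sets all 3 averaged 12.23 or more. The aldehyde dehydrogenase ALDH3A2 (11.84 ± 0.17) was high, in contrast to the ALDH1A genes. Metallothioneins were high for MT2A (12.84 ± 0.080), MT1X (12.10 ± 0.034), MT1G (11.62, 10.71 and 11.53), MT1F (11.07 ± 0.18) and MT1E (10.58 ± 0.22), with MT1G lowest on replicate 2, and MT1M was near the floor (6.18 ± 0.15).

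In lipid metabolism no measured gene of cholesterol synthesis and uptake was near the floor, and 7 of 19 were high, including MSMO1 (11.07 ± 0.13) and SQLE (11.02 ± 0.032). With the floor at the 99th percentile of the reference families, 2 of the 19 were near it. For fatty acid synthesis ELOVL5 (11.64 ± 0.16), ACLY (11.55 ± 0.014) and SCD (11.41 ± 0.040) were high and FASN was intermediate (8.26 ± 0.022). The beta-oxidation enzymes HADHB (11.53 ± 0.14) and HADHA (10.95 ± 0.047) were high. Of the lipid droplet coat proteins, PLIN3 averaged 10.44 ± 0.029, whereas PLIN2, the usual coat protein outside fat tissue, read 6.52, 6.62 and 6.46, near the floor in both of its probe sets. The fatty acid binding protein FABP5 averaged 10.19 ± 0.073, and FABP3 (6.73 ± 0.22), FABP4 (6.56 ± 0.043) and FABP7 (6.47 ± 0.038) were near the floor. Among transporters SLC38A2 (13.17 ± 0.051), TFRC, the transferrin receptor (12.34 ± 0.038), and SLC7A5 (11.29 ± 0.082) were high, and SLC40A1, the iron exporter ferroportin, was near the floor (6.89 ± 0.16).

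Genes of the cell cycle were all above the floor but for 1. None of 21 replication genes and none of 21 mitosis genes was near the floor, and PCNA (11.15 ± 0.089), RRM1 (10.55 ± 0.033), TOP2A (10.86 ± 0.069) and CCNB1 (10.35 ± 0.036) were high. MKI67, the proliferation antigen, averaged 8.09 ± 0.12 and PLK1 7.27 ± 0.10. CDK4 (11.94 ± 0.058), CCND1 (10.37 ± 0.075) and the inhibitors CDKN1A (10.62 ± 0.12) and CDKN1B (10.39 ± 0.17) were high. CDKN2B, an inhibitor of CDK4 and CDK6, was the 1 gene near the floor (6.59, 6.56 and 6.55), and CDKN2A read 7.22, 7.27 and 7.19, at the edge of the floor. Of 99 measured stress genes 3 were near the floor. In all, 14 of 21 genes of the unfolded protein response and heat shock were high, led by HSP90AA1 (13.37 ± 0.066), and 8 of 17 hypoxia genes were high, led by HIF1A (12.82 ± 0.025). No measured interferon response gene was near the floor, with IFITM3 (13.15 ± 0.026) and ISG15 (10.47 ± 0.15) high and MX1 (7.36 ± 0.062) and OAS1 (7.43 ± 0.10) lowest. With the floor at the 99th percentile of the reference families, 7 of 23 interferon response genes were near it, against 58.0% of all genes. So were 5 of 21 replication genes and 3 of 21 mitosis genes. The apoptosis inhibitors MCL1 (11.85 ± 0.040), BIRC2 (11.52 ± 0.078) and XIAP (10.36 ± 0.081) were high, and BCL2 averaged 7.29 ± 0.024.

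Markers of other cell types were checked against the label of a breast cancer line. Of 15 endothelial markers 13 were near the floor, including CDH5 (6.18 ± 0.065), VWF (6.78 ± 0.011) and TEK (6.76 ± 0.14). With the floor at the 90th percentile of the reference families 9 of the 15 were near it, against 34.3% of all genes. With replicate 1 left out 10 of the 15 were near the floor, against 42.9% of all genes. PECAM1, or CD31, was the highest endothelial marker at 8.25, 8.30 and 8.30, with 4 of 5 probe sets above the floor. Of 18 haematopoietic markers 13 were near the floor. The leukocyte antigen PTPRC read 7.71, 7.95 and 7.69, above the floor, while CD3E (7.03 ± 0.075), MS4A1 (6.55 ± 0.030), CD14 (6.47 ± 0.011) and LYZ (6.29 ± 0.11) were near it. The calcium-binding proteins S100A8 (13.71, 13.60 and 13.61) and S100A9 (10.85 ± 0.15), which both myeloid cells and stressed epithelia make, were high. The summed level of PTPRC, CD3D, MS4A1, CD14 and LYZ ranged from 33.8 to 34.5 over the arrays, and that of the endothelial set PECAM1, CDH5, VWF, KDR and TEK from 34.1 to 34.4. Of 17 adipocyte and muscle markers 14 were near the floor. Among neural and hepatic genes 12 of 17 were near the floor, and TUBB3, the neuronal beta tubulin that many carcinoma lines use, was high (12.02, 11.91 and 11.97).

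Promoter composition differed between the level classes as a description over RefSeq windows. The 250 bases before the start held a median of 8 CG pairs in 7995 windows of genes near the floor, 20 in 10923 windows of intermediate genes and 21 in 2571 windows of high genes. The E-box letters CAGGTG or CACCTG were in 19.6% of windows of genes near the floor, 15.6% of intermediate and 13.3% of high genes. Windows of 1 gene overlap or share sequence, so these windows are not independent.

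The genes with the largest spread were chiefly those in which replicate 2 differed. COX3, encoded by the mitochondrial genome, read 8.88, 11.19 and 8.78, so that replicate 2 was the sole high array, whereas the mitochondrial COX2 read 14.41, 14.37 and 14.44. UNC5B, a netrin receptor, read 9.53 and 9.86 on replicates 1 and 3 and was 1.31 above their mean on replicate 2. The transporter ATP13A3 read 9.22, 10.40 and 9.44, and PRKAA1, a catalytic subunit of AMP-activated kinase, 8.85, 9.98 and 9.01. RHOC, a GTPase of cell motility, went the other way at 11.42, 10.30 and 11.47. Of the 10 genes above the floor with the largest SD, replicate 2 was the highest in 9 and the lowest in 1. SOX10, a neural crest and basal breast factor, read 7.02, 7.92 and 6.95 and MISP 6.82, 7.80 and 7.02, and both were above the floor on replicate 2 alone. CAVIN2 (7.46, 8.49 and 8.27) and CAMKK1 (7.77, 8.69 and 7.80) completed the 10 with HK2. In replicate 2, 147 of the genes above the floor were more than 0.5 above the mean of the other arrays and 36 more than 0.5 below it. What set this array apart was not tested, and no batch is named in the labels.

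**Figure D5:**
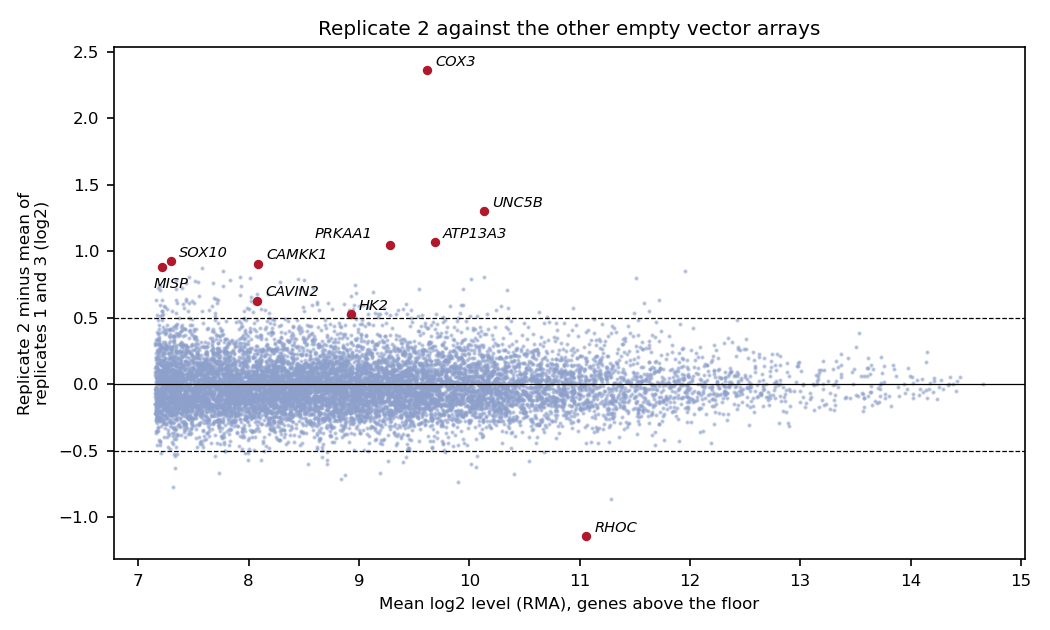
Each point is 1 of 11210 genes above the floor, by its mean log2 level (x axis, RMA) and by its level on replicate 2 minus the mean of replicates 1 and 3 (y axis, log2). Dashed lines mark a difference of 0.5, and the 10 genes with the largest SD are red and named; COX3 is the highest point and RHOC the lowest.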

How the data were processed

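The values are those deposited with the series as log2 expression: the authors normalised the scanner files of all 6 arrays together by robust multiarray average (RMA) in Chipster, which corrects background, quantile normalises and summarises each probe set. The 3 empty vector arrays ran from 5.67 to 14.66 and share 1 distribution (SD at equal rank at most 0.015), so total RNA per cell cannot be compared, and low values are compressed. Of 54675 probe sets, 62 controls were set aside, 41091 carried 1 gene symbol in the platform annotation, 1801 several and 11721 none. Only those with 1 symbol were used. Symbols were checked against a RefSeq table (GRCh38.p14), which changed 0 of them.

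From these values the level of each gene was computed in Python 3.11.15 with pandas 2.3.3 and numpy 2.4.6 as the mean over the 3 arrays of the probe set with the highest mean, with its SD. Groups came from the sample titles. No test was run, since a single group was described; the number of arrays limits the precision. The members and the gene lists were chosen with earlier results of these data known, and the lists support nothing by themselves. Named genes were the 20 highest, members at the top and bottom of each list, defining lineage markers, and the 10 most variable genes above the floor. The niche factors, TNC and related receptors were also named, and other members were named for their role. The calling of classes was tested on simulated data with widely separated levels, so the calls of genes close to the floor were not tested. Alternatives were other floors, the median over probe sets, a filter on probe sets with the suffix _x_at or _s_at, a narrower high class and leaving out each array.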

Additional observations from a re-analysis of the deposited data

How the results depend on the processing

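With the floor at the 99th percentile of the reference families, 3 mesenchymal markers and 18 receptor tyrosine kinases were near the floor, and with the 90th percentile 1 glycolysis gene. Taking the median over a gene's probe sets gave 2 mesenchymal markers near the floor, and 3 epithelial adhesion genes, 2 EMT factors and 1 receptor tyrosine kinase in the high class. Without probe sets of possible cross-hybridisation, 3 of 20 stem cell markers, 1 of 25 receptor tyrosine kinases and 4 of 13 glycolysis genes were high. A high class of the top 5% held 989 genes, 2 EMT factors and 0 receptor tyrosine kinases. These counts depend on the floor, the choice of probe sets and the width of the high class. The other counts of the 7 lists named here and of all genes stayed within 1.5 times under these settings. Leaving out each array in turn gave 8481 to 8735 genes near the floor, 9 to 12 receptor tyrosine kinases near the floor and 12 to 13 high collagens. ESR1 changed sides of the floor in 5 of the 9 alternatives, and ERBB2 (6.96), GATA3 (6.85), ZEB2 (6.59) and TNC (7.07) fell below it by the median over probe sets. With the 90th percentile floor 1 of the 4 low niche factors stayed near the floor (INHBB). For the other 50 lists, 557 counts under the alternatives stayed within 1.5 times and 143 did not, 78 lower and 65 higher. FN1 was 8.24 without the probe sets of possible cross-hybridisation and 14.09 by the median. No paired analysis was possible because the result comes from no test and a single group was described. Signal over background limits what can be said of genes near the floor, and 85 of the 1090 measured list genes had a mean within 0.2 of it.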

Other observations

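Gene families outside the lists were looked at by symbol, after the levels had been seen, and are given as values only. Among 28 HOX genes, which set position along the body axis, 17 were near the floor (60.7%, against 43.3% of all genes) and none was high. The HOXC cluster held most of the measured HOX genes above the floor, 7 of 9 measured. HOXC6 read 9.72, 9.88 and 9.46, HOXC10 averaged 8.63 ± 0.097 and HOXC4 8.23 ± 0.064. In contrast, 7 of 8 HOXD genes and 7 of 10 HOXB genes were near the floor. Of the HOXA cluster only HOXA2 was measured (6.54, near the floor), so the other HOXA genes are not described here. Of 16 MAGE-A, MAGE-B and MAGE-C genes, which are normally limited to the germ line, 9 were near the floor and 2 were high, MAGEA6 at 11.57, 11.25 and 11.51 and MAGEA12 at 11.38, 11.15 and 11.40. MAGEC2 averaged 9.77 ± 0.14, with another probe set at 6.57, and MAGEA4 averaged 6.12 ± 0.074. These paralogues are near-identical, so signal may be shared among them.

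Of 20 measured claudins 14 were near the floor (70%, against 43.3% of all genes) and none was high. CLDN12 (9.44 ± 0.094) and CLDN1 (8.55 ± 0.061) were the highest, so the low level of CLDN3, CLDN4 and CLDN7 did not extend to every claudin. Of 20 S100 genes 9 were high, including S100A6 (13.89 ± 0.030), S100A2 of basal epithelia (12.90, 12.84 and 12.88) and S100A16 (11.96 ± 0.11), and 10 were near the floor, S100B (6.28 ± 0.089) lowest. Among 44 keratins 34 were near the floor and 6 were high, and 1 of the high keratins was KRT75, a keratin of the hair follicle, at 11.29, 11.43 and 11.46. Protocadherins of the clustered kind were near the floor in 21 of 33 cases with none high, whereas 2 of 10 others were high, PCDH18 at 11.86, 11.73 and 11.87 and PCDH7 at 10.87, 10.88 and 10.74. Proteasome subunits were high in 28 of 34 cases, and the 1 near the floor was PSMA8 (6.19 ± 0.16), a subunit of the testis.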
